A study of Mus musculus with 16 samples.

Results

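Livers of mice kept on a control diet and given perfluorooctanoic acid (PFOA) are described here against livers of control-diet mice given vehicle. The groups are CD_PFOA and CD_vehicle, with 4 mice each, which makes 8 of the 16 libraries of the series. They were chosen by the treatment labels alone, and every gene with enough counts was tested, 14998 of the 53465 in the table. All mice were C57BL/6 and 29 to 30 weeks old, and received their diet for 16 weeks before treatment and then PFOA or vehicle for 8 weeks. The other 8 libraries, HFD_PFOA and HFD_vehicle, come from mice on a high-fat diet and serve here to estimate the spread and to ask whether the response depends on diet. Each library carries its own code in the labels and is taken as 1 mouse. The sources used here do not give the sex of the mice, the dose and route of PFOA or the hour at which livers were taken.

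PFOA is a fully fluorinated, chain-like acid that resembles a fatty acid and stays in the body for long. In rodent liver it is known to activate PPARA, the nuclear receptor that switches on fatty acid oxidation, and the drug-sensing receptors CAR and PXR. Hepatocytes, the main cells of the liver, also make most plasma proteins, turn the nitrogen of amino acids into urea, release glucose, and take up and modify hormones, drugs and bile acids. The comparison therefore asks what a lean liver expresses under PFOA beyond the targets that PPARA is known for.

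The labelled tissue could be checked against the genes that define hepatocytes. CPM, the share of a gene in 1000000 counts of the library after TMM scaling, is not corrected for gene length, so it compares libraries, not genes. All 10 hepatocyte markers were measured, at a summed level, mostly of Alb, of 69494 to 85916 CPM in CD_PFOA libraries and 116835 to 149373 CPM in CD_vehicle libraries. Of the 10, 8 were called lower and 0 higher (0 also at an unadjusted p under 0.05 and by DESeq2), where 12.6% of all genes were called lower, with a median log2 fold change of -0.81 (-0.85 without CD_vehicle 1 and CD_vehicle 4). The markers thus moved with the falling lists described below, and their part in those results was not tested. In a bulk sample, fewer cells of a type and less of its RNA per cell cannot be told apart.

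The 8 libraries held 23594309 to 25778125 counts. On the first principal component of these libraries, which held 40.53% of the variance, the CD_PFOA libraries lay at -67.22 to -44.82 and the CD_vehicle libraries at 30.35 to 66.3. A pair of vehicle libraries stood apart. In CD_vehicle 1, all 22 of the acute phase genes were the highest of the 4 vehicle libraries, by a median of 1.75 log2 over the other 3. In CD_vehicle 4, which lay at -68.9 on the second component (13.49% of the variance), all 9 B cell markers and 10 of 11 T and NK cell markers were the highest, by medians of 4.5 and 3.0 log2. The biological coefficient of variation was 0.2506 among CD_PFOA libraries and 0.3278 among CD_vehicle libraries (0.2863 without CD_vehicle 4). Many results that move without either library are given with and without it, but not all.

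Gene expression differed widely between the groups. In an edgeR quasi-likelihood fit, 3656 of 14998 genes were called at adjusted p under 0.05, or 24.4%, with 1763 higher (11.8%) and 1893 lower (12.6%). Counts of called list members below are to be read beside these shares. At least 2-fold changes were made by 738 of the higher and 551 of the lower genes. With the libraries scaled by their totals in place of TMM factors, the calls split into 2160 higher and 1376 lower. The 4 CD_PFOA values lay all above the 4 CD_vehicle values for 1667 genes (11.1%) and all below for 1736 genes (11.6%). The median log2 fold change over all genes tested was -0.0024. Without CD_vehicle 1 and CD_vehicle 4, 3548 genes were called, 1852 higher and 1696 lower.

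The usual PPARA targets rose in most members. Of a list of 77 genes, 76 were in the table and 75 passed the filter on low counts. Of these, 69 were called higher and 0 lower (1 at an unadjusted p under 0.05; 0 by DESeq2). Ehhadh, a peroxisomal beta-oxidation enzyme, marks the exposure in each library. Its level was 18011, 14115, 14096 and 15411 CPM in CD_PFOA livers, against 498, 698, 763 and 536 CPM in CD_vehicle livers. No CD_PFOA library came near a CD_vehicle library, and the log2 fold change was 4.63 ± 0.16 (SE, edgeR adjusted p = 1.37e-13). Outside the list, 1694 genes rose and 1893 fell. Falls were more common than rises among the abundant genes: of the 100 genes with the highest mean CPM, 47 fell and 30 rose, and of the next 400, 176 fell and 86 rose. Among the 8998 least abundant genes, 572 fell and 844 rose. With library totals the 100 most abundant genes still gave 44 falls and 31 rises.

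**Figure D1:**
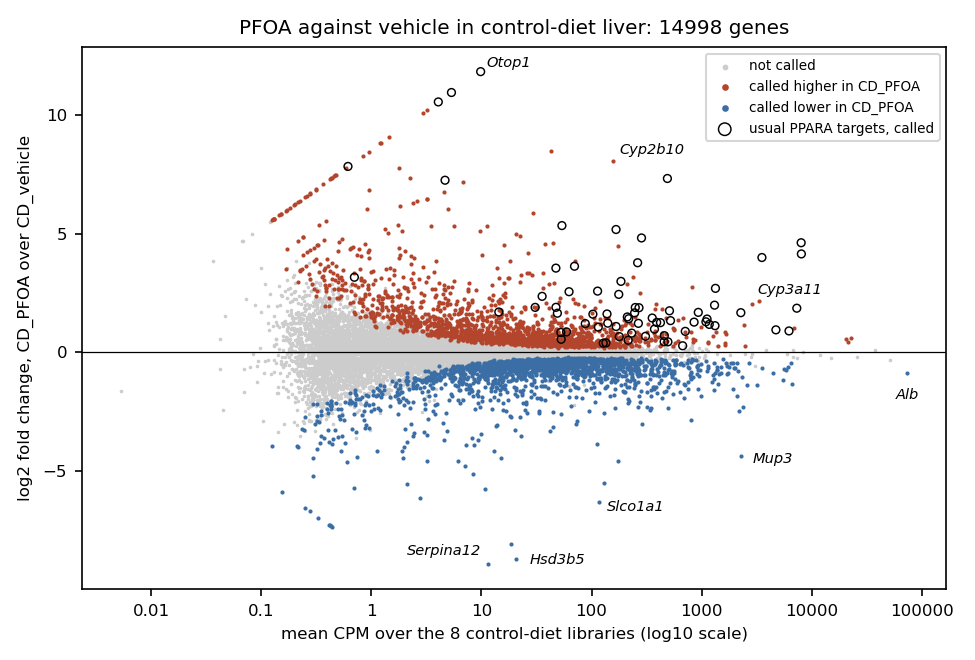
Log2 fold change of CD_PFOA over CD_vehicle against mean CPM (log10 scale) for 14998 genes; red and blue points are genes called higher and lower by edgeR at adjusted p under 0.05, and open circles the 69 called usual PPARA targets. Falls are frequent among abundant genes such as Alb, and the rising diagonal of points at the upper left holds genes with 0 counts in CD_vehicle, whose fold change depends on the prior count.

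Genes that dispose of nitrogen fell together. Of 15 tested genes of the urea cycle and ammonia handling, 12 fell and 0 rose (0 also at an unadjusted p under 0.05 and by DESeq2), with a median log2 fold change of -0.66. Cps1, the mitochondrial enzyme that makes carbamoyl phosphate from ammonia, lies on chromosome 1 at 67123026–67231259 (GRCm38, plus strand). Its level was 1149, 1497, 1771 and 1406 CPM in CD_PFOA livers, against 2995, 4840.5, 4702 and 2383 CPM in CD_vehicle livers. All 4 CD_PFOA values were below all CD_vehicle values, and the log2 fold change was -1.36 ± 0.19 (SE, edgeR adjusted p = 1.95e-05). Argininosuccinate lyase Asl (-1.18 ± 0.15, again ± SE) and arginase Arg1 (-0.66 ± 0.12) fell too. Glul, glutamine synthetase, which traps ammonia in the hepatocytes around the central vein, had 253, 315, 453 and 527 CPM in CD_PFOA livers, against 1102, 973, 913 and 1541 CPM in CD_vehicle livers. The groups did not overlap, and the log2 fold change was -1.55 ± 0.22 (SE, edgeR adjusted p = 3.44e-05). The amino acid transporter Slc38a2 fell by a smaller step (-0.90 ± 0.11). CD_vehicle 4 was the lowest of the vehicle libraries for 11 of the 15 genes, and without it 13 fell.

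Of 43 tested genes of amino acid breakdown, 19 fell and 2 rose (median -0.3), and 27 fell without CD_vehicle 4, the lowest vehicle library for 32 of them. Tat, the tyrosine aminotransferase, stood at 676, 1319, 1035 and 902 CPM in CD_PFOA livers, against 3202, 2749.7, 2927 and 2568 CPM in CD_vehicle livers. Every CD_PFOA library was below every CD_vehicle library, with a log2 fold change of -1.54 ± 0.15 (SE, edgeR adjusted p = 3.58e-07). Prodh, which starts proline oxidation, fell (-1.49 ± 0.16), as did Kynu of tryptophan breakdown (-0.98 ± 0.10). The transaminases Oat and Got1, named after their values were seen, had log2 fold changes of -2.35 ± 0.31 and -1.95 ± 0.25. The members that rose were Tdo2 (0.68 ± 0.17, and 0.32 and not called without CD_vehicle 1 and CD_vehicle 4), the first enzyme of tryptophan breakdown, and Hibch (0.51 ± 0.09), of valine breakdown. Both were also named after their values were seen, as were all genes below that are given beyond the naming rule.

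Methyl group metabolism moved the same way. Of 26 tested genes of methionine, choline and folate metabolism, 17 fell and 4 rose (median -0.64). Gnmt, which uses up S-adenosylmethionine, had 344, 502, 592 and 456 CPM in CD_PFOA livers, against 1277, 1628, 1480.4 and 1112 CPM in CD_vehicle livers. The groups were apart by a wide margin, and the log2 fold change was -1.54 ± 0.15 (SE, edgeR adjusted p = 4.03e-07). Cbs, which leads homocysteine into cysteine, fell to 197 ± 7.19 CPM in CD_PFOA livers, against 545 ± 103 CPM in CD_vehicle livers (SD, n = 4 each; log2 fold change -1.47 ± 0.11). Pemt, which makes phosphatidylcholine by methylation, had a log2 fold change of -1.22 ± 0.11. Nnmt, which methylates nicotinamide, was lower still (-3.14 ± 0.58). The members that rose were led by Psat1, of serine synthesis (2.93 ± 0.46), and Mthfd1l, of mitochondrial formate release (1.52 ± 0.44, or 2.48 without CD_vehicle 4). Chdh, of choline oxidation (0.60 ± 0.10), and Mat2a, which makes S-adenosylmethionine (0.53 ± 0.14), rose too. Without CD_PFOA 1 Mat2a had 0.33, still called, and without CD_vehicle 1 and CD_vehicle 4 it had 0.42 and was not called.

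Targets of the integrated stress response, a program that cells use when amino acids or protein folding capacity run short, went in both directions. Of 20 tested genes, 9 rose and 3 fell (median 0.32). Asns, asparagine synthetase, had 8.72, 10.8, 6.15 and 9.28 CPM in CD_PFOA livers, against 2.54, 0.504, 0.890 and 2.18 CPM in CD_vehicle livers. The groups did not overlap, with a log2 fold change of 2.5 ± 0.43 (SE, edgeR adjusted p = 0.000232). Trib3, a pseudokinase of this pathway, had 51.8, 34.2, 32.7 and 39.6 CPM in CD_PFOA livers, against 5.55, 3.02, 4.87 and 6.71 CPM in CD_vehicle livers, a log2 fold change of 2.97 ± 0.21 (SE, edgeR adjusted p = 3.22e-09). Vldlr, a lipoprotein receptor (2.90 ± 0.20), and Slc3a2, the heavy chain of several amino acid transporters (1.51 ± 0.12), rose as well. The factor Atf4 itself fell at the RNA level (-0.55 ± 0.08), and so did its targets Chac1 (-1.49 ± 0.35) and Ddit4 (-1.30 ± 0.23). Gdf15, a hormone released by stressed cells, was not called (-0.15 ± 0.33, and 0.50 without CD_vehicle 4).

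**Figure D2:**
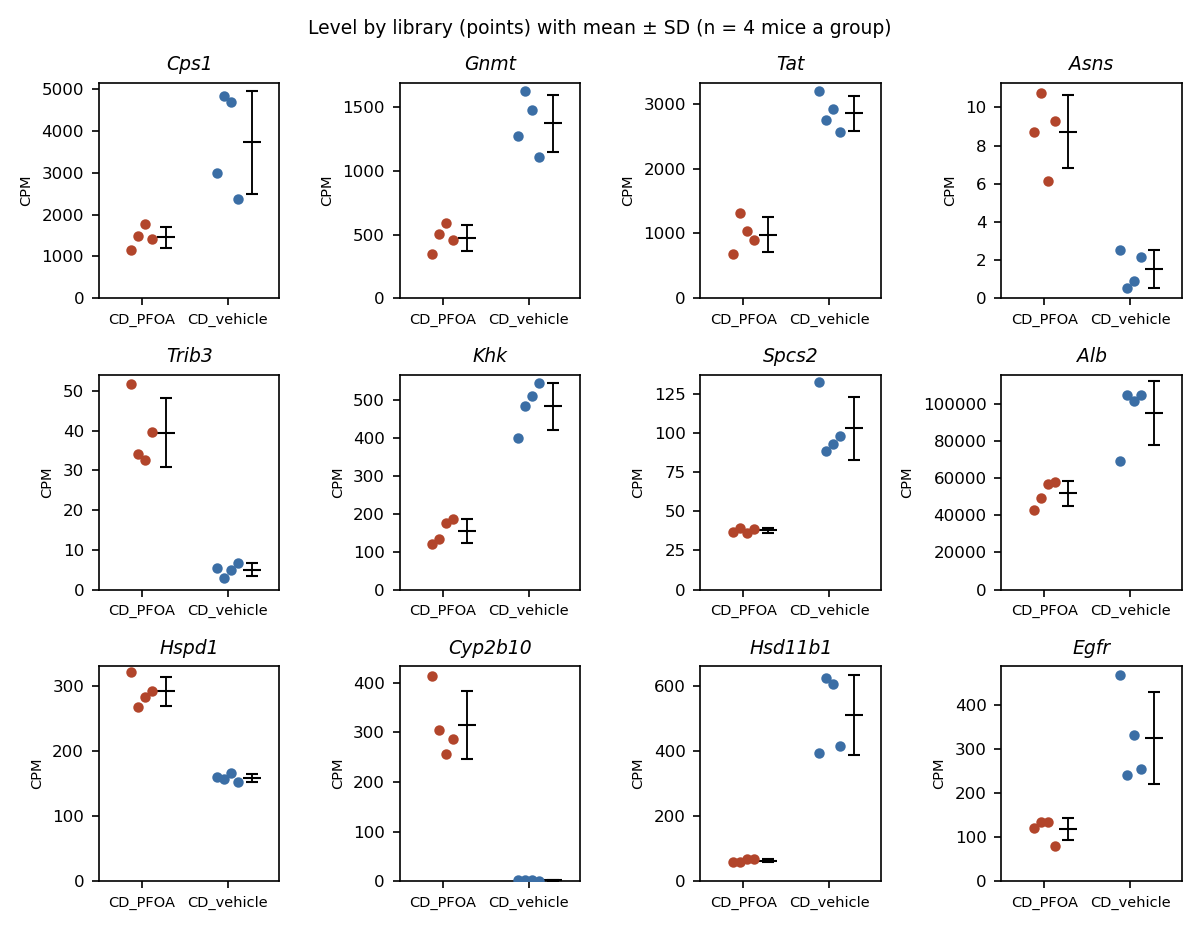
CPM of 12 genes in each of 4 CD_PFOA libraries (red, left) and 4 CD_vehicle libraries (blue, right), with mean ± SD beside them. The groups do not overlap in any of the 12 panels, with Cps1 at most 1771 CPM in CD_PFOA and at least 2383 CPM in CD_vehicle.

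Glucose output and storage genes fell as a group. Of 20 tested genes of glycogen, fructose and glucose output, 12 fell and 0 rose (1 at an unadjusted p under 0.05 and 1 by DESeq2), with a median of -0.76. Ppp1r3c, which brings a phosphatase to glycogen, stood at 23.1, 18.3, 30.1 and 34.9 CPM in CD_PFOA livers, against 99.9, 98.6, 94.7 and 103 CPM in CD_vehicle livers. The values of the groups lay far apart, with a log2 fold change of -1.90 ± 0.17 (SE, edgeR adjusted p = 1.06e-07). Khk, which starts fructose breakdown, fell to 155 ± 31.9 CPM in CD_PFOA livers, against 485 ± 62.2 CPM in CD_vehicle livers (SD, n = 4 each; log2 fold change -1.65 ± 0.13). The transporter Slc37a4, which moves glucose 6-phosphate to its phosphatase, fell by a smaller factor (-1.16 ± 0.13). The phosphatase G6pc had 156, 168, 231 and 174 CPM in CD_PFOA livers, against 816, 775, 485 and 327 CPM in CD_vehicle livers. All CD_PFOA values of G6pc were below the lowest CD_vehicle value, that of CD_vehicle 4, and the log2 fold change was -1.72 ± 0.25 (SE, edgeR adjusted p = 3.49e-05). Pck1, the gene of the first committed step of gluconeogenesis, fell likewise (-1.31 ± 0.18).

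Genes of mitochondria went in both directions. Of 27 tested genes of the citric acid cycle and pyruvate entry, 7 rose and 5 fell, where 11.8% of all genes rose and 12.6% fell. Among the risers were malate dehydrogenase Mdh2 (0.56 ± 0.09) and Dlst of the oxoglutarate dehydrogenase complex (0.47 ± 0.08). Of 29 tested genes of mitochondrial import and chaperones, 8 rose and 3 fell. Hspd1, the matrix chaperonin, had 322, 267, 283 and 292 CPM in CD_PFOA livers, against 160.3, 157, 166 and 152 CPM in CD_vehicle livers. Its values hardly varied within a group, and the log2 fold change was 0.88 ± 0.08 (SE, edgeR adjusted p = 8.73e-08). Its partner Hspe1 (0.87 ± 0.09) shares a start region with Hspd1 on the opposite strand and overlaps it in the annotation, and counts made without strand cannot fully divide such a pair. The chaperone Hspa9 rose too (0.67 ± 0.08). The coactivator Ppargc1b rose (1.61 ± 0.28) and its relative Ppargc1a fell (-1.14 ± 0.22). For the 80 tested genes of the mitochondrial ribosome, 4 rose and 7 fell (4 without CD_vehicle 1), fewer for their number than among all genes. Mrps2 rose (0.47 ± 0.10), while Mrps27 (-0.59 ± 0.10) and Mrpl48 (-0.65 ± 0.13) fell; Mrpl48 overlaps Rab6a, which fell as well.

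Transcripts of the mitochondrial genome, a list added after values were seen, gave 7 rises and 0 falls (0 also at an unadjusted p under 0.05 and by DESeq2) among 19 tested, with a median of 0.41. CD_vehicle 1 was the lowest vehicle library for all 19, by a median of -0.53 log2. Without it 7 rose and 1 fell, and with CD_vehicle 4 left out as well, 6 rose and 2 fell. mt-Rnr1, a ribosomal RNA, had 1745, 1891, 1659.8 and 1714 CPM in CD_PFOA livers, against 715, 1150.0, 1039 and 928 CPM in CD_vehicle livers. No library of one group reached the other, and the log2 fold change was 0.87 ± 0.12 (SE, edgeR adjusted p = 3.05e-05). mt-Nd5, of respiratory complex I, rose by a smaller factor (0.62 ± 0.13). mt-Nd6 (1.02 ± 0.18) lies opposite to mt-Nd5 and overlaps it, so reads of this pair cannot be fully told apart. mt-Nd2 rose as well (0.57 ± 0.13). The labels name total RNA and do not say how ribosomal RNA was handled.

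Coenzymes that fatty acid oxidation draws on showed single changes. Of 13 tested genes of coenzyme A synthesis and breakdown, 3 rose and 2 fell: Pank1 (0.61 ± 0.10) and Ppcs (0.78 ± 0.14) of its synthesis and the vitamin transporter Slc5a6 (1.03 ± 0.27, or 1.83 without CD_vehicle 1 and CD_vehicle 4) rose, and the peroxisomal coenzyme A hydrolase Nudt7 (-0.65 ± 0.18) and the carrier Slc25a16 (-0.31 ± 0.08, not called with library totals at -0.22) fell. Among 12 tested genes of NAD synthesis, 4 rose and 2 fell, with Nmrk1, a nicotinamide riboside kinase (1.04 ± 0.19), and Nadk, the NAD kinase (0.48 ± 0.09), higher and Aspdh (-0.64 ± 0.10) lower. Members of a peroxisome assembly list were called higher in 6 and lower in 3 of 23 cases, where 11.8% of all genes were called higher and 12.6% lower. The median was 0.15. CD_vehicle 4 was the lowest vehicle library for 13 of the 23. Without CD_vehicle 1 and CD_vehicle 4, 4 were called higher and 4 lower, with a median of 0.05. The list is not of assembly factors alone, as it includes the enzyme malonyl-CoA decarboxylase, Mlycd, which rose (0.63 ± 0.10). The membrane protein Pxmp4 (0.44 ± 0.09) rose too, and Pex2, of the import machinery, fell (-0.75 ± 0.11).

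The machinery that passes secreted proteins through the endoplasmic reticulum fell broadly. Of 33 tested genes of translocation and glycosylation, 23 fell and 0 rose (1 at an unadjusted p under 0.05; 0 by DESeq2), with a median of -0.64. Spcs2, a subunit of the signal peptidase that trims secreted proteins, lies on chromosome 7 at 99837569–99863462 (GRCm38, minus strand). Its level was 37.0, 39.5, 36.3 and 38.8 CPM in CD_PFOA livers, against 132, 88.7, 92.7 and 97.9 CPM in CD_vehicle livers. The CD_PFOA values fell within a narrow range below all CD_vehicle values, and the log2 fold change was -1.44 ± 0.12 (SE, edgeR adjusted p = 3.51e-08). The signal peptidase subunit Spcs3 (-1.08 ± 0.12), the translocon partner Tram1 (-1.11 ± 0.12) and the channel subunit Sec61a1 (-1.06 ± 0.17, or -0.67 without CD_vehicle 1 and CD_vehicle 4) fell with it. Vesicle transport followed: 22 of 33 tested genes of COPII and Golgi transport fell and 1 rose (median -0.38). The cargo receptor Lman1, which carries coagulation factors, fell (-0.80 ± 0.11), as did Tmed9 (-1.1 ± 0.16) and the coat protein Sec23b (-1.34 ± 0.20, or -0.86 without CD_vehicle 1 and CD_vehicle 4). The one member that rose was Tmed5, a relative of Tmed9 (0.84 ± 0.09), which overlaps Mtf2, also called higher. With library totals 5 members of the transport list rose and 17 fell.

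CD_vehicle 1, the library with high acute phase genes, exceeded the mean of the other 3 by a median of 0.51 log2 over the translocation genes and 0.41 over the transport genes. Without it, 22 and 20 members still fell, with medians of -0.54 and -0.30. The factor Bhlha15, known from secretory cells of other organs, had 0, 0.0828, 0 and 0.204 CPM in CD_PFOA livers, against 17.8, 0.504, 0.796 and 2.61 CPM in CD_vehicle livers. The vehicle values were spread widely with CD_vehicle 1 far the highest, and the log2 fold change was -6.13 ± 1.09 (SE, edgeR adjusted p = 0.000303), and -4.08 without that library. Without CD_vehicle 1 and CD_vehicle 4 it was -3.08, still called.

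Plasma proteins, the cargo of this route, are given here by single genes, chosen as large losses in CPM or in fold, so that their direction was fixed by the choice. Alb, serum albumin, held 4.389 to 5.51% of all counts in CD_PFOA libraries and 6.458 to 10.12% in CD_vehicle libraries. Its level was 43013, 49542, 56878 and 57844 CPM in CD_PFOA livers, against 69419.5, 105049, 101645 and 104866 CPM in CD_vehicle livers. The lowest CD_vehicle value was that of CD_vehicle 1, still above all CD_PFOA values, and the log2 fold change was -0.88 ± 0.14 (SE, edgeR adjusted p = 7.08e-05). Ahsg, fetuin-A, had 3149.8, 3135, 3095 and 3054 CPM in CD_PFOA livers, against 5886, 6174, 5236 and 5588 CPM in CD_vehicle livers, a log2 fold change of -0.88 ± 0.09 (SE, edgeR adjusted p = 3.24e-07). The carrier of thyroid hormone and retinol Ttr (-0.74 ± 0.13) and the protease inhibitor Serpina3k (-2.48 ± 0.30), whose gene overlaps Serpina3m, fell also. Serpina12, vaspin, was close to 0 under PFOA: its level was 0, 0.166, 0.295 and 0.0818 CPM in CD_PFOA livers, against 36, 37.7, 33.3 and 42.4 CPM in CD_vehicle livers. The log2 fold change of Serpina12 was -8.06 ± 0.43 (SE, edgeR adjusted p = 7.22e-11), and the gene lies on chromosome 12 at 104028769–104044443 (GRCm38, minus strand). The fibrinogen chains Fga (-1.32 ± 0.26), Fgb (-1.15 ± 0.21) and Fgg (-1.37 ± 0.22) fell, and without CD_vehicle 1 they had -0.78, -0.73 and -0.96, still called.

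Major urinary proteins, pheromone carriers that mouse liver secretes, were added as a list after values were seen. Of 19 tested members, 9 fell and 0 rose (0 also at an unadjusted p under 0.05 and by DESeq2), with a median of -2.45. Mup3 had 249, 166, 181 and 248 CPM in CD_PFOA livers, against 4166, 6308, 5039 and 1946 CPM in CD_vehicle livers. CD_vehicle 4 was the lowest of the vehicle libraries for 15 of 19 members, by a median of -1.95 log2. The log2 fold change of Mup3 was -4.37 ± 0.39 (SE, edgeR adjusted p = 8.73e-08), and without CD_vehicle 4 it was -4.62, with 13 members falling. These genes are near copies of each other, and their reads cannot be fully told apart. Car3, a carbonic anhydrase abundant in liver and fat, also fell (-2.29 ± 0.19).

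Genes of drug metabolism were called in both directions. Of 48 tested P450 genes of families 1 to 3, 16 rose and 4 fell (7 fell without CD_vehicle 1), where 11.8% of all genes rose and 12.6% fell. The median was 0.27. Without CD_vehicle 1 and CD_vehicle 4, 13 rose and 8 fell, with a median of 0.07. Cyp2b10, a target of CAR, had 413, 304, 257 and 286 CPM in CD_PFOA livers, against 1.13, 1.51, 1.87 and 0.214 CPM in CD_vehicle livers. No CD_vehicle value came near a CD_PFOA value, and the log2 fold change was 8.07 ± 0.44 (SE, edgeR adjusted p = 9.43e-11). Cyp3a11, a PXR target, had 4775, 4523, 4284 and 4879 CPM in CD_PFOA livers, against 951, 1161, 1041 and 1267 CPM in CD_vehicle livers, a log2 fold change of 2.06 ± 0.14 (SE, edgeR adjusted p = 1.33e-09). Cyp2c29 (2.16 ± 0.24) and Cyp2c55 (3.33 ± 0.21) rose, whereas Cyp2e1, which oxidises ethanol, was not called (0.11 ± 0.14). Cyp1a2, a target of the AHR, was called (0.61 ± 0.19, edgeR adjusted p = 0.0227; not called without CD_vehicle 1, CD_vehicle 4, CD_PFOA 3 or CD_PFOA 4, at 0.46 to 0.55, and at 0.28 without CD_vehicle 1 and CD_vehicle 4 together). The receptor CAR, Nr1i3, was called slightly higher (0.49 ± 0.16; not called without CD_vehicle 1, CD_vehicle 2, CD_vehicle 4, CD_PFOA 1, CD_PFOA 3 or CD_PFOA 4, at 0.38 to 0.50, and at 0.29 without both vehicle libraries). So was PXR, Nr1i2 (0.31 ± 0.11; not called without CD_vehicle 1, CD_vehicle 4, CD_PFOA 2 or CD_PFOA 4, at 0.22 to 0.29, and at 0.16 without both).

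Por, the reductase that feeds electrons to all these P450 enzymes, had 541, 782, 606 and 563 CPM in CD_PFOA livers, against 153, 121, 139 and 191 CPM in CD_vehicle livers. There was no overlap, and the log2 fold change was 2.04 ± 0.16 (SE, edgeR adjusted p = 1.66e-08). Of 16 tested genes of heme synthesis and electron donors, 4 rose and 1 fell (3 without CD_vehicle 1 and 3 without CD_vehicle 4), with coproporphyrinogen oxidase Cpox (0.54 ± 0.10) and biliverdin reductase Blvrb (0.47 ± 0.10) among the risers.

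Conjugating enzymes were likewise called in both directions. Of 24 tested glutathione S-transferases, 9 rose and 3 fell (5 fell without CD_vehicle 1), where 11.8% of all genes rose and 12.6% fell. Their median was 0.16, with 0.05 without CD_vehicle 1 and 0.32 without CD_vehicle 1 and CD_vehicle 4. Gstt2 had 128, 118, 114 and 128 CPM in CD_PFOA livers, against 21.4, 30.6, 32.9 and 32.0 CPM in CD_vehicle livers. The CD_PFOA values were all higher, with a log2 fold change of 2.06 ± 0.14 (SE, edgeR adjusted p = 1.29e-09). Gstm3 (2.51 ± 0.39) and Gstm4 (1.23 ± 0.15) rose as well. Of 8 tested sulfotransferases, 3 fell (5 without CD_vehicle 1) and 0 rose, also at an unadjusted p under 0.05 and by DESeq2. Sult1a1 had 35.4, 61.8, 94.2 and 97.2 CPM in CD_PFOA livers, against 188, 269, 272 and 260.3 CPM in CD_vehicle livers. Its log2 fold change was -1.78 ± 0.23 (SE, edgeR adjusted p = 1.08e-05), and Sult1b1 (-0.79 ± 0.20) and Sult2a8 (-1.27 ± 0.38; not called without CD_vehicle 2, CD_vehicle 3, CD_PFOA 3 or CD_PFOA 4, at -1.21 to -1.11) fell beside it. Glucuronosyltransferases were split, 4 higher and 3 lower of 16, with Ugt2b34 higher (0.50 ± 0.09) and Ugt2b1 (-1.84 ± 0.24) and Ugt2a3 (-1.06 ± 0.19) lower. Carboxylesterases were split too, 2 higher (1 without CD_vehicle 1 and 1 without CD_vehicle 4) and 6 lower of 14, with Ces2c higher (1.70 ± 0.19) and Ces1c (-1.01 ± 0.12) and Ces2g (-0.57 ± 0.10) lower. Members of these families are close copies, which counting may not fully separate.

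**Figure D3:**
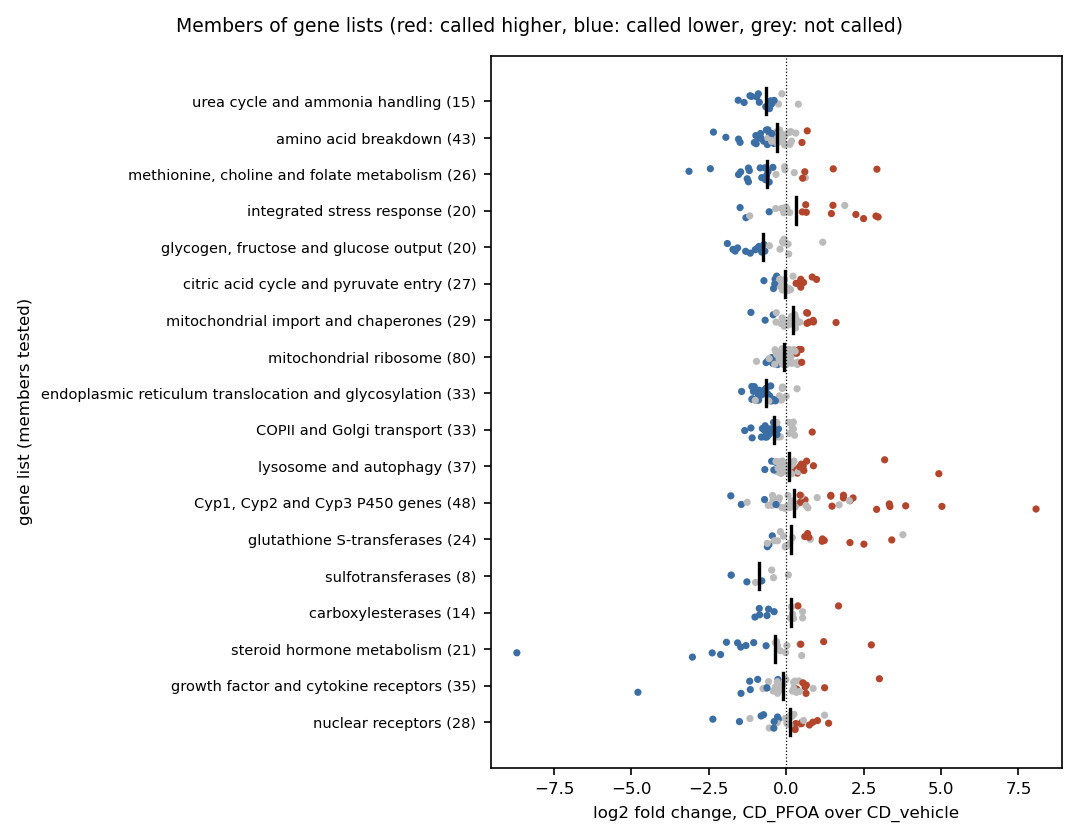
Log2 fold change of CD_PFOA over CD_vehicle for each tested member of 18 gene lists (members tested in brackets), with red for called higher, blue for called lower, grey for not called and a black bar at the median. The urea cycle, translocation and glycosylation, and glycogen, fructose and glucose lists hold no red point, and the P450 and glutathione S-transferase lists hold more red than blue points.

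Membrane transporters changed in both directions. Of 268 tested solute carriers, 46 rose and 69 fell, where 11.8% of all genes rose and 12.6% fell. The uptake carrier Slco1a1, which brings bile acids and steroid conjugates into hepatocytes, had 2.99, 2.03, 3.92 and 2.62 CPM in CD_PFOA livers, against 212, 352, 288 and 62.3 CPM in CD_vehicle livers. CD_vehicle 4 was the lowest of the vehicle libraries, yet all CD_PFOA values were lower still, with a log2 fold change of -6.30 ± 0.71 (SE, edgeR adjusted p = 1.82e-06). The anion carrier Slc22a7 fell (-3.90 ± 0.69), as did Slc10a1, the main bile salt uptake carrier (-1.66 ± 0.21). The vitamin C transporter Slc23a2 rose (1.43 ± 0.10). The anion carrier Slc22a6, best known from kidney, had 1.08, 0.414, 1.39 and 0 CPM in CD_PFOA livers, against 0.0834, 0, 0 and 0 CPM in CD_vehicle livers, a log2 fold change of 4.74 ± 1.45 (SE, edgeR adjusted p = 0.0213). It was not called without CD_vehicle 2, CD_vehicle 3, CD_vehicle 4 or CD_PFOA 3, at 4.21 to 4.42, nor without CD_vehicle 1 and CD_vehicle 4, at 7.08. The urate carrier Slc22a12 had 0 counts in all CD_vehicle libraries and 1.43 to 4.89 CPM in CD_PFOA libraries.

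Several enzymes of hormone metabolism fell. Of 21 tested genes of steroid hormone metabolism, 10 fell and 3 rose (median -0.35). Without CD_vehicle 1 and CD_vehicle 4, 14 fell and 3 rose (median -0.66). Hsd11b1, which makes active glucocorticoid, lies on chromosome 1 at 193221634–193264075 (GRCm38, minus strand) and had 58.6, 57.8, 66.7 and 66.9 CPM in CD_PFOA livers, against 395, 625, 606 and 415 CPM in CD_vehicle livers. CD_PFOA values were narrow and far below, with a log2 fold change of -3.03 ± 0.17 (SE, edgeR adjusted p = 2.07e-10). Hsd3b5, a steroid dehydrogenase of male mouse liver, had 0, 0.166, 0 and 0.204 CPM in CD_PFOA livers, against 34.6, 75.8, 52.6 and 1.45 CPM in CD_vehicle livers. CD_vehicle 4 was far below the other vehicle libraries and closest to the CD_PFOA values. The log2 fold change was -8.70 ± 1.02 (SE, edgeR adjusted p = 2.99e-06), and -9.11 without that library. The estrogen receptor Esr1 fell (-2.12 ± 0.33), and Hsd17b11, a dehydrogenase on lipid droplets, rose (2.75 ± 0.12).

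Of 22 tested genes of the growth hormone and IGF axis, 4 rose and 4 fell, where 11.8% of all genes rose and 12.6% fell. Those that fell were the prolactin receptor Prlr (-1.44 ± 0.21), the growth hormone receptor Ghr (-0.85 ± 0.11), its transducer Stat5b (-0.66 ± 0.12) and the hormone Igf1 (-0.65 ± 0.16). The risers were the feedback inhibitor Socs2 (1.5 ± 0.30), Igfbp2 (1.20 ± 0.21), Grb10 (0.76 ± 0.25; not called without CD_vehicle 1, CD_vehicle 2, CD_PFOA 1 or CD_PFOA 2, at 0.49 to 0.78, nor without CD_vehicle 1 and CD_vehicle 4, at 0.84) and Igf2r (0.41 ± 0.11), which overlaps Airn, also called higher. For retinoids, 4 of 24 tested genes rose and 7 fell (2 and 9 without CD_vehicle 1 and CD_vehicle 4). Cyp26a1, which degrades retinoic acid and is switched on by it, had 10.3, 21.2, 14.1 and 14.6 CPM in CD_PFOA livers, against 76.7, 65.5, 45.4 and 57.5 CPM in CD_vehicle livers. The groups stood apart, with a log2 fold change of -2.02 ± 0.28 (SE, edgeR adjusted p = 2.51e-05). The retinol uptake receptor Stra6l fell (-1.14 ± 0.09) and the reductase Dhrs4 rose (0.73 ± 0.10). Of 10 tested genes of thyroid hormone handling, 3 fell, among them the amino acid and thyroid hormone carrier Slc16a10 (-0.70 ± 0.15), and 2 rose, among them the thyroid-responsive factor Klf9 (0.52 ± 0.10). The deiodinase Dio1 was not called (0.19 ± 0.24).

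Of 23 tested genes of a list of iron, copper and metallothionein genes, 6 fell (3 without CD_vehicle 1) and 4 rose (7 without CD_vehicle 1 and CD_vehicle 4). Over all genes, 12.6% fell and 11.8% rose. Tmprss6, a protease that restrains hepcidin, fell (-0.74 ± 0.09) with Hfe (-0.49 ± 0.10), and Id1, a target of BMP signals, rose (1.61 ± 0.32). Hamp, the hepcidin gene, was not called, at 436, 1051, 497 and 269 CPM in CD_PFOA livers, against 1147, 1033, 679 and 382 CPM in CD_vehicle livers, values that overlapped throughout.

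Surface receptors changed in both directions. Of 35 tested growth factor and cytokine receptors, 8 fell and 7 rose, where 12.6% of all genes fell and 11.8% rose. Ntrk2, the receptor of the neurotrophin BDNF, had 0.0415, 0.994, 0.464 and 0.450 CPM in CD_PFOA livers, against 6.00, 18.8, 16.5 and 13.4 CPM in CD_vehicle livers. Every CD_PFOA value was far below the lowest CD_vehicle value, with a log2 fold change of -4.79 ± 0.47 (SE, edgeR adjusted p = 2.71e-07). Egfr had 122, 133, 135 and 80.8 CPM in CD_PFOA livers, against 469.5, 241, 332 and 255 CPM in CD_vehicle livers. The CD_PFOA values were all lower, with a log2 fold change of -1.46 ± 0.39 (SE, edgeR adjusted p = 0.00931). The adrenergic receptor Adra1b (-1.16 ± 0.14), Fgfr4, the receptor of the bile acid hormone FGF15 (-0.92 ± 0.12), and Lifr (-0.62 ± 0.11) fell too.

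Transcription factors of hepatocytes changed in both directions. Of 22 tested members, 7 rose and 5 fell (8 without CD_vehicle 4). The list shares 4 of these with the clock genes given below, Dbp, Tef and Hlf, which rose, and Nfil3, which fell. Of 28 nuclear receptors, 8 rose and 8 fell, where 11.8% of all genes rose and 12.6% fell. Without CD_vehicle 1 and CD_vehicle 4, 6 rose and 6 fell. Hnf4a, a master factor of hepatocytes, had 490.1, 481, 455 and 486 CPM in CD_PFOA livers, against 803, 665, 679 and 523 CPM in CD_vehicle livers. The values did not overlap but were close, and the log2 fold change was -0.48 ± 0.11 (SE, edgeR adjusted p = 0.00234). Ppara itself stood at 122, 124, 124 and 111 CPM in CD_PFOA livers, against 69.1, 65.6, 62.0 and 68.2 CPM in CD_vehicle livers, clearly apart, with a log2 fold change of 0.86 ± 0.10 (SE, edgeR adjusted p = 1.81e-06). Its relative Ppard had 9.10, 11.5, 11.3 and 10.7 CPM in CD_PFOA livers, against 31.0, 36.4, 26.5 and 27.9 CPM in CD_vehicle livers, lower in every CD_PFOA library, with a log2 fold change of -1.51 ± 0.15 (SE, edgeR adjusted p = 3.49e-07). The orphan receptor Nr2f6 fell (-0.81 ± 0.10).

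Genes of the circadian clock differed between the groups. In liver, BMAL1 (gene Arntl) with CLOCK or NPAS2 activates Per, Cry, Rev-erb (Nr1d1 and Nr1d2), Dbp, Tef and other genes through E-boxes, and the Rev-erb repressors act back on Arntl and Nfil3 through ROR elements. DBP, TEF and HLF activate and NFIL3 represses through D-boxes. This list was added after values were seen. Of its 18 tested members, 8 rose and 7 fell. Arntl had 9.72, 7.29, 11.3 and 8.38 CPM in CD_PFOA livers, against 33.4, 36.7, 36.5 and 25.6 CPM in CD_vehicle livers. All CD_PFOA values were lower, with a log2 fold change of -1.85 ± 0.17 (SE, edgeR adjusted p = 1.03e-07). Npas2 (-1.99 ± 0.28), Cry1 (-2.06 ± 0.24) and Nfil3 (-1.63 ± 0.20) fell with it. Dbp had 24.4, 42.6, 31.6 and 23.1 CPM in CD_PFOA livers, against 0.584, 0.275, 2.01 and 2.43 CPM in CD_vehicle livers. CD_PFOA values were at least several times the highest CD_vehicle value, and the log2 fold change was 4.51 ± 0.41 (SE, edgeR adjusted p = 9.95e-08). Per3 (2.25 ± 0.39), Bhlhe41 (1.96 ± 0.53), Tef (1.5 ± 0.18), Nr1d1 (1.37 ± 0.22) and Nr1d2 (1.01 ± 0.13) rose. Clock (-0.14 ± 0.12), Per2 (-0.24 ± 0.24) and Ciart (1.96 ± 0.80) were not called.

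Smaller calls in the list were less stable. Per1 had -0.36 ± 0.11 and was not called without CD_vehicle 1, CD_PFOA 3 or CD_PFOA 4, at -0.30 to -0.27. Bhlhe40 had -0.42 ± 0.13 and was not called without CD_vehicle 1 or CD_PFOA 1, at -0.32 to -0.27, or without CD_vehicle 1 and CD_vehicle 4, at -0.14. Hlf had 0.34 ± 0.11 and was not called without CD_vehicle 2, CD_vehicle 3, CD_vehicle 4, CD_PFOA 2, CD_PFOA 3 or CD_PFOA 4, at 0.29 to 0.34. The hour of sampling of the groups is not stated in the labels, and its part in these values was not tested. The same list gave 6 rises and 7 falls on the high-fat diet.

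Promoters of 3 of these genes are shown, 1 for each motif, chosen after values were seen. Other genes that hold a motif are named below. Given are the 250 bases before the RefSeq start, build GRCm38.p6, 5′ to 3′ on the strand of the gene, with the motif in capitals.
Per3, chr4:151044666-151044915, minus strand, D-box TTATGNAA: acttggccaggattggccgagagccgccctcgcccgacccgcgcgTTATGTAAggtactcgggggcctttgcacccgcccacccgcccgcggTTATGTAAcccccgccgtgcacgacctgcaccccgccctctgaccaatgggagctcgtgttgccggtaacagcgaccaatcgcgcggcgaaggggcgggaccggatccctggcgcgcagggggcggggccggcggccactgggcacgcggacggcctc
Tef, chr15:81802423-81802672, plus strand, E-box CACGTG: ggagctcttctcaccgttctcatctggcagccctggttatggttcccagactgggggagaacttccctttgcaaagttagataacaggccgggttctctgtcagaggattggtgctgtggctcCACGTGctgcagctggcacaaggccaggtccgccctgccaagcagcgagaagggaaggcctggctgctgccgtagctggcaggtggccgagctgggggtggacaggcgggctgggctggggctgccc
Nfil3, chr13:52981040-52981289, minus strand, ROR element core TAGGTCA, here on the other strand: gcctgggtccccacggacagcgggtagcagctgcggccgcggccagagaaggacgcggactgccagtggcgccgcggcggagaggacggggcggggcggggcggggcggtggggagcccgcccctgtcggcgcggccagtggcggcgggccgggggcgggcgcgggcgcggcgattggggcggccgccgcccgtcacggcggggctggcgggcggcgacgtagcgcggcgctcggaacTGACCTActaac
The motifs were searched as spelled on both strands and do not overlap each other in these stretches. The D-box begins 205 and 158 bases before the start of Per3, the E-box 127 bases before that of Tef, and the ROR core 12 bases before that of Nfil3. These are RefSeq starts. In GENCODE M21 Nfil3 starts further upstream, at 52981073, so that the ROR match lies inside the gene there. Of 15 clock genes with a promoter in the table, 2 held TTATGNAA, 5 CACGTG and 1 TAGGTCA. Over 10871 tested genes with a promoter, the shares were 2.59%, 9.58% and 2.29%. TTATGNAA was found in Per1 and Per3, and CACGTG in Bhlhe41, Ciart, Cry1, Per1 and Tef. Of those not shown, Cry1 fell (-2.06 ± 0.24), as did Per1 (-0.36 ± 0.11, a less stable call). Bhlhe41 rose (1.96 ± 0.53) and Ciart was not called. A match is a string of letters and not a shown binding site.

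**Figure D4:**
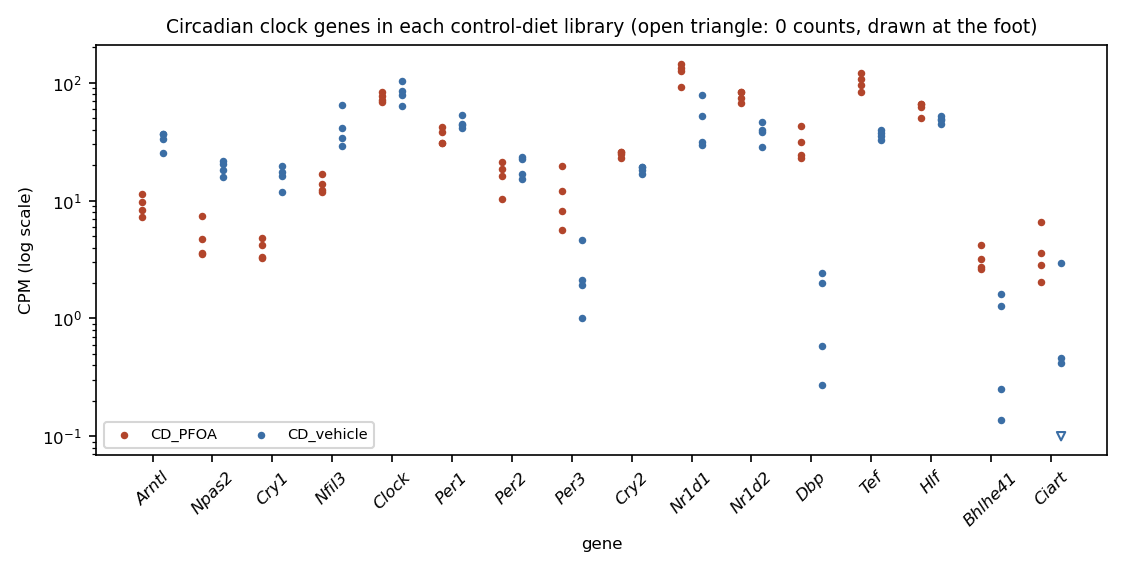
CPM (log scale) of 16 clock genes in each of 4 CD_PFOA libraries (red, left of each pair) and 4 CD_vehicle libraries (blue, right), with an open triangle for 0 counts. Arntl, Npas2, Cry1 and Nfil3 lie lower and Dbp, Tef, Nr1d2 and Per3 higher in all 4 CD_PFOA libraries, and Clock and Per2 overlap.

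Genes of a fetal or injured liver gave 9 rises and 4 falls among 29 tested, where 11.8% of all genes rose and 12.6% fell. Krt23, a keratin, had 67.0, 51.1, 60.3 and 54.4 CPM in CD_PFOA livers, against 0.751, 2.06, 0.656 and 0.513 CPM in CD_vehicle livers. The CD_PFOA values were all far above the CD_vehicle values, with a log2 fold change of 5.88 ± 0.33 (SE, edgeR adjusted p = 1.43e-10). Gadd45a, a stress gene of DNA repair, rose (4.13 ± 0.30) and its relative Gadd45g fell (-1.45 ± 0.24, or -0.94 without CD_vehicle 1 and CD_vehicle 4). Cdkn1a, the cell cycle inhibitor p21, fell (-1.03 ± 0.23). Afp, alpha-fetoprotein, was not called (-0.12 ± 0.38), nor was cyclin D1, Ccnd1 (0.38 ± 0.34). Myc had 11.4, 13, 9.15 and 6.18 CPM in CD_PFOA livers, against 2.21, 1.01, 2.72 and 6.32 CPM in CD_vehicle livers. CD_vehicle 4 overlapped the CD_PFOA values, and the log2 fold change was 1.69 ± 0.36 (SE, edgeR adjusted p = 0.00154), or 2.32 without that library. Of 22 tested genes of ribosome assembly, 4 rose (7 without CD_vehicle 1) and 1 fell, among them Gnl3 higher (0.47 ± 0.11) and Bop1 lower (-0.63 ± 0.13). CD_vehicle 4 exceeded the other vehicle libraries by a median of 0.82 log2 over the fetal and injury genes, and without it 12 members rose and 4 fell.

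Among genes of the lysosome and autophagy, 11 of 37 rose and 4 fell, where 11.8% of all genes rose and 12.6% fell. Ctse, an aspartic protease, had 42.9, 43.5, 35.4 and 50.5 CPM in CD_PFOA livers, against 0.667, 1.92, 1.5 and 1.58 CPM in CD_vehicle livers. Every CD_PFOA value was many times the highest CD_vehicle value, with a log2 fold change of 4.93 ± 0.29 (SE, edgeR adjusted p = 2.83e-10). The cholesterol transporter Npc1 (0.57 ± 0.09) and Map1lc3a, of autophagosomes (0.88 ± 0.12), rose by less. For cell junctions and adhesion, 4 of 26 rose and 7 fell, with Itga6, the laminin receptor subunit (1.75 ± 0.28), and desmoplakin, Dsp (0.66 ± 0.10), higher and the tight junction protein Tjp3 lower (-0.78 ± 0.11).

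Of 48 tested proteasome genes, 3 rose and 3 fell (10 and 2 with library totals), where 11.8% of all genes rose and 12.6% fell. The 3 proteasome genes that fell were the subunits of the immunoproteasome, which prepares peptides for antigen presentation: Psmb9 (-1.28 ± 0.22), Psmb8 (-1.03 ± 0.20, or -0.67 without CD_vehicle 1 and CD_vehicle 4) and Psmb10 (-0.62 ± 0.18; not called without CD_vehicle 1 or CD_PFOA 3, at -0.49 to -0.48, and at -0.29 without CD_vehicle 1 and CD_vehicle 4). Psmd4, of the regulatory cap, rose (0.49 ± 0.11). Of 37 tested interferon-stimulated and antigen presentation genes, which share Psmb8 and Psmb9 with that list, 14 fell and 0 rose (0 also at an unadjusted p under 0.05 and by DESeq2), with a median of -0.45. H2-K1, a class I heavy chain, had 457, 576, 615 and 623 CPM in CD_PFOA livers, against 997, 967, 1015 and 1181 CPM in CD_vehicle livers. The groups did not overlap, and the log2 fold change was -0.87 ± 0.10 (SE, edgeR adjusted p = 2.64e-06). H2-D1 fell likewise (-0.80 ± 0.10). CD_vehicle 4 was the highest vehicle library for 27 of 37 members, by a median of 0.81 log2. Without CD_vehicle 1 and CD_vehicle 4, 9 fell and 4 rose, with a median of -0.12; H2-K1 kept -0.81 and Psmb9, which overlaps Tap1, had -0.82, both called.

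A small set of genes was present in one group only, taken as no more than 3 counts over its 4 libraries against a mean of at least 1 CPM. There were 17 such genes in CD_PFOA, 13 of them outside the usual PPARA targets, and 1 in CD_vehicle (Gm379). Sptlc3, a subunit of the enzyme that starts sphingolipid synthesis, had 9.1, 6.09, 5.4 and 4.95 CPM in CD_PFOA libraries, against 0 counts in every CD_vehicle library. Taking 3 counts over the 4 vehicle libraries as the limit of a 0, its level was higher by at least 193-fold. By this limit the vomeronasal receptor gene Vmn2r3 was at least 179-fold, the potassium channel Kcnq3 at least 72.7-fold, Fam83b at least 73.3-fold and the sodium channel subunit Scnn1g at least 57.3-fold higher. Adra2a, an adrenergic receptor, had 344 counts in CD_PFOA and 1 in CD_vehicle, a ratio of 323 (95% counting interval 57.6 to 12804). The chemokine receptor Cxcr1, with 184 and 1 counts, had a ratio of 173 (95% counting interval 30.6 to 6866). These bounds and intervals cover counting error only.

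Some of the largest rises by log2 fold change outside the usual targets, besides Cyp2b10, are given here as single genes. Cox6b2, the testis form of a cytochrome oxidase subunit, had 15.1, 14.6, 14.5 and 9.65 CPM in CD_PFOA livers, against 0.167, 0.183, 0 and 0 CPM in CD_vehicle livers, a log2 fold change of 7.17 ± 0.45 (SE, edgeR adjusted p = 6.78e-10). Fbp2, the muscle form of fructose bisphosphatase, rose (6.40 ± 0.70), as did the sodium channel subunit Scn4b (6.48 ± 0.50) and Dab1, an adaptor of neurons (6.47 ± 0.60). All of these were near 0 in the CD_vehicle libraries, so the folds rest on few counts there. The largest fall by log2 fold change was that of Lrtm1, at 0, 0, 0.126 and 0.0409 CPM in CD_PFOA livers, against 14.2, 40.5, 28.9 and 8.24 CPM in CD_vehicle livers, a log2 fold change of -8.94 ± 0.73 (SE, edgeR adjusted p = 2.66e-08). Hapln4, a matrix link protein (-4.43 ± 0.39), Fam198a (-5.14 ± 0.51) and Mmd2 (-4.59 ± 0.51) also fell steeply. Pitx3 (-4.44 ± 0.67) overlaps Elovl3, which fell too, on the other strand.

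Calls in one direction sat next to each other in places. In GENCODE M21 on GRCm38, 11 runs of at least 5 neighbouring tested genes were called the same way, 6 higher and 5 lower. The longest held 9 genes that rose, at 25897620–27037375 on chromosome 7, from Cyp2b10 over Cyp2b13, Cyp2b9, Cyp2a4 and Cyp2a5 to Cyp2a12. Next was the Acot cluster of acyl-CoA thioesterases, 7 genes that rose at 83987861–84111349 on chromosome 12. A run of 7 genes that fell lay at 22813214–23082078 on chromosome 16, where plasma protein genes stand side by side: Ahsg, Fetub, Hrg, Kng2 and Kng1, with Tbccd1 and Dnajb11. Clusters of close relatives share reads, so neighbouring calls are not independent.

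The counts of the acute phase and cholesterol lists moved with single vehicle libraries. Of 22 tested acute phase genes, 13 fell and 0 rose (0 at an unadjusted p under 0.05; by DESeq2 9 fell and 0 rose), with a median of -1.12. Saa1 had 10.4, 22.7, 14.7 and 8.10 CPM in CD_PFOA livers, against 1255, 32.1, 20.7 and 37.2 CPM in CD_vehicle livers. CD_vehicle 1 was far above every other library. The log2 fold change of -4.59 ± 1.0 became -1.1 without CD_vehicle 1, and -0.92 and not called without CD_vehicle 1 and CD_vehicle 4. For Saa2, -5.51 ± 1.15 became -1.58 without CD_vehicle 1 and -1.26 without both libraries, still called. Without CD_vehicle 1, 10 acute phase genes fell and 2 rose, with a median of -0.31. Without CD_vehicle 1 and CD_vehicle 4, 10 fell and 4 rose, with a median of -0.38. Serpina3m (-1.83 ± 0.16, -1.64 without CD_vehicle 1) and Crp (-0.93 ± 0.14, -0.72) stayed called. Of 24 tested genes of cholesterol synthesis, 6 fell and 0 rose (13 and 0 at an unadjusted p under 0.05; 7 and 0 by DESeq2), but 16 fell without CD_vehicle 1, where 20 members were the lowest of the vehicle libraries. Without CD_vehicle 4, where 21 were the highest, 6 fell and 2 rose. With CD_vehicle 1 and CD_vehicle 4 both left out, 12 fell and 1 rose, with a median of -0.42 against -0.52 in the main fit. On the high-fat diet 6 of the cholesterol genes rose and 0 fell, with a median of 0.31. Over all genes 8.6% rose and 7.91% fell on that diet. The interaction was called for 1 gene of the list.

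**Figure D5:**
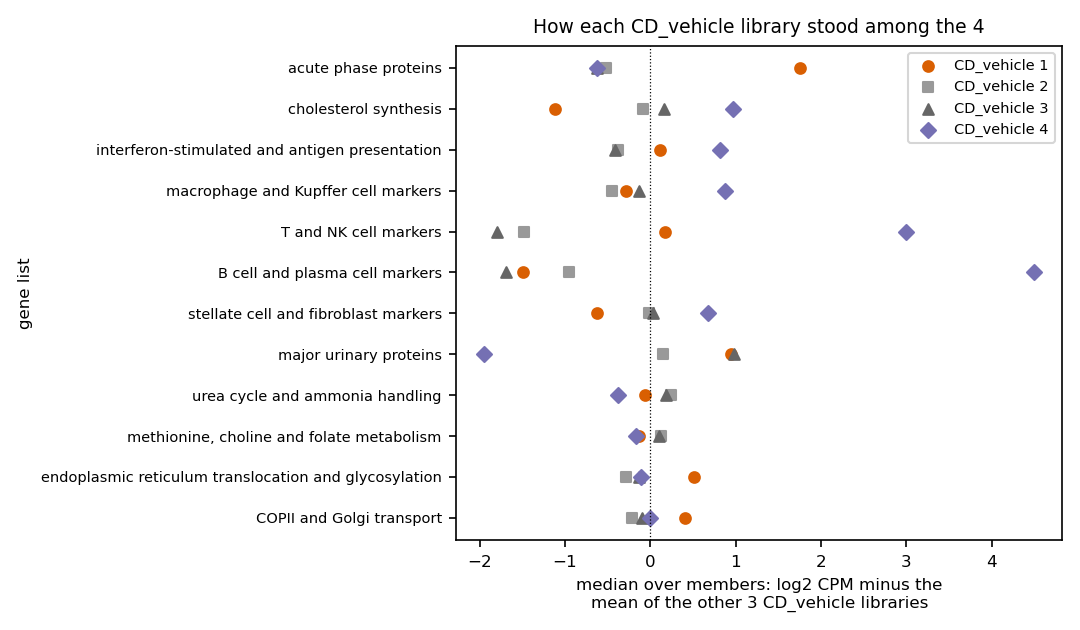
Each CD_vehicle library against the mean of the other 3, as the median over the members of 12 gene lists of the difference in log2 CPM. CD_vehicle 1 stands 1.75 above for acute phase genes, CD_vehicle 4 stands 4.50 above for B cell markers and 1.95 below for major urinary proteins, and the 4 libraries lie between -0.38 and 0.24 for the urea cycle.

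Markers of other cell types were set beside these lists. By edgeR 0 markers were called among 16 for macrophages and Kupffer cells, 6 for neutrophils, 11 for T and NK cells and 7 for cholangiocytes. At an unadjusted p under 0.05 these lists held 1, 2, 0 and 2 markers, and DESeq2 called 1, a neutrophil marker. Without CD_vehicle 4, 4 macrophage markers, 1 neutrophil marker and 1 T and NK cell marker were called higher. The macrophage markers summed to 298 to 636 CPM in CD_PFOA and 341 to 664 CPM in CD_vehicle libraries. Of 9 B cell markers, Igkc (-3.29 ± 0.90) and Jchain (-2.98 ± 0.93; not called without CD_vehicle 4, CD_PFOA 2, CD_PFOA 3 or CD_PFOA 4, at -2.95 to -0.23) fell. DESeq2 called 0 of the 9. Without CD_vehicle 4, Igkc and Jchain had -0.25 and -0.23 (-0.12 and -0.08 without CD_vehicle 1 as well), and neither was called, while 2 other members were called higher. The B cell markers summed to 37.6 to 58.1 CPM in CD_PFOA and 19 to 652 CPM in CD_vehicle libraries. Of 12 endothelial markers, 6 rose and 1 fell, with Lyve1 (1.21 ± 0.28), Cdh5 (0.58 ± 0.13) and Pecam1 (0.50 ± 0.11) higher, and their sum was 464 to 598 CPM in CD_PFOA and 413 to 480 CPM in CD_vehicle libraries. Of 12 stellate cell and fibroblast markers, Pdgfrb (0.65 ± 0.18) and Col1a1 (0.82 ± 0.27; not called without CD_vehicle 1, CD_vehicle 2, CD_vehicle 3, CD_PFOA 1, CD_PFOA 2 or CD_PFOA 3, at 0.65 to 0.83; 1.33 and called without CD_vehicle 4) rose. Without CD_vehicle 4, 4 of the 12 rose, and without CD_vehicle 1, 1 rose and 1 fell. The sum over that list was 587 to 770 CPM in CD_PFOA and 399 to 736 CPM in CD_vehicle libraries. The part of these cell types in the lists above was not tested.

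The same contrast was made in mice on the high-fat diet. On that diet 1290 genes rose with PFOA (8.6%) and 1186 fell (7.91%). Both contrasts called 1782 genes, 8 of them in opposite directions, and 1874 genes were called on the control diet alone. A test of the difference itself, the interaction of PFOA and diet, called 31 genes (0.207%), while 1638 had an unadjusted p under 0.05. This count rose to 352 without CD_vehicle 4, and to 106 without CD_vehicle 1. It was 652 without both.

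Of the 31 genes, those named here were chosen as having the smallest interaction p among genes called on the control diet, or belong to the lists above. Cyp3a11 had a log2 fold change of 2.06 ± 0.14 on the control diet and 0.57 ± 0.13 on the high-fat diet (interaction adjusted p = 0.00244). Limch1, an actin-binding protein, had 4.86, 4.10, 4.93 and 3.07 CPM in CD_PFOA livers, against 0.208, 1.1, 0.375 and 0.555 CPM in CD_vehicle livers. The log2 fold change of Limch1 was 2.92 ± 0.32 on the control diet and -0.14 ± 0.25 on the high-fat diet (interaction adjusted p = 0.00328). The epoxide hydrolase Ephx1 rose by 1.46 ± 0.10 and by 0.63 ± 0.09 (interaction adjusted p = 0.0132), and the interleukin-1 receptor antagonist Il1rn by 2.84 ± 0.25 and by 0.93 ± 0.22 (interaction adjusted p = 0.019). Elovl2, which lengthens polyunsaturated fatty acids, fell on the control diet (-0.80 ± 0.11) and was not called on the high-fat diet (0.16 ± 0.11, interaction adjusted p = 0.0108). Nudt7 went opposite ways, at -0.65 ± 0.18 and 0.84 ± 0.18 (interaction adjusted p = 0.0192). Gadd45a rose on both diets, with 4.13 ± 0.30 and 2.17 ± 0.27 (interaction adjusted p = 0.0469). Urea cycle genes fell in 10 of 15 cases and translocation genes in 19 of 33 on the high-fat diet as well, with no interaction called in either list.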

How the data were processed

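Liver RNA of 16 mice was sequenced from non-stranded libraries, 4 mice a group, per the labels. The authors deposited raw counts of reads per gene. Per the submitters' processing notes, the build was GRCm38 (mm10), and the tools named are STAR 2.5.2b, featureCounts from Subread 1.6.0, Trimmomatic 0.33 and bcl2fastq 2.20.0.422. The annotation release was not stated. Counts not split by strand cannot separate overlapping genes.

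Genes were kept by edgeR's filterByExpr over the 4 groups, which left 14998 genes holding 99.9% of counts. All 16 libraries were fitted with 1 mean a group in edgeR 4.0.16 (R 4.3.3, TMM factors, quasi-likelihood test, 12 residual degrees of freedom). Genes were called at a Benjamini-Hochberg adjusted p under 0.05. Library sizes of 23594309 to 25778125 counts on the control diet limit the precision of genes near 0. On simulated counts of 14613 tested genes, the test called 60% of 50 genes raised 2-fold and 82% of 50 raised 4-fold. It called 51% of 49 genes lowered 2-fold and 68.8% of 48 lowered 4-fold, and 5 genes falsely. Recovery with as large a share of changed genes as was called in the data, 24.4%, was not tested.

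The alternatives were DESeq2 1.42.0, other scalings and filters, the control-diet libraries alone and each library left out. The p-values of the main fit weigh a difference of group means against the spread between samples, estimated over all 16 libraries. The biological coefficient of variation of that fit was 0.2419, against 0.3278 among CD_vehicle libraries alone.

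The members and lists were chosen with earlier results of these data known. The lists of clock genes, mitochondrially encoded genes and major urinary proteins were added after values were seen. The text names, with a few additions, of each list the called members with the lowest p, up to 3, the 15 largest rises and falls by log2 fold change, the 10 largest gains and losses in CPM, the 6 genes with the smallest interaction p, and a set of index genes, not all of which are given. Gene positions are from GENCODE M21 and promoters from RefSeq, both on GRCm38.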

Additional observations from a re-analysis of the deposited data

Results flagged for a closer look

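In 27 of 408 tests on the genes named here, 1 library lay further from the other 3 of its group than Dixon's critical value allows, where chance gives about 1 in 20. In 4 of these, for Adra2a, Cxcr1, Gm379 and Slc22a6, the other 3 libraries were at 0, so that any count passes; they leave 23 of 404 tests. The values of the other 3 libraries are given in brackets as a range. CD_PFOA 1 stood apart for Arg1 at 691 CPM (935 to 974) and Pemt at 99.5 CPM (146 to 149). CD_PFOA 2 stood apart for Fgb at 3972 CPM (3205 to 3270.4) and Gm379 at 0.0828 CPM (0). CD_PFOA 3 stood apart for Blvrb at 118 CPM (132 to 135). CD_PFOA 4 stood apart for Cox6b2 at 9.65 CPM (14.5 to 15.1) and Ppara at 111 CPM (122 to 124). CD_vehicle 1 stood apart for Adra2a at 0.0417 CPM (0), Alb at 69419.5 CPM (101645 to 105049), Cxcr1 at 0.0417 CPM (0), Hapln4 at 56.6 CPM (19.1 to 20.6), Mlycd at 82.0 CPM (60.5 to 63.6) and Pck1 at 2742 CPM (1736 to 1825). The same library stood apart for Ppargc1a at 14 CPM (31.2 to 35.7), Saa1 at 1255 CPM (20.7 to 37.2), Saa2 at 958 CPM (11.5 to 23.1), Slc22a6 at 0.0834 CPM (0), Slc38a2 at 232 CPM (176 to 177) and Sult1a1 at 188 CPM (260.3 to 272). CD_vehicle 3 stood apart for Mrpl48 at 12.3 CPM (11.4) and Mrps27 at 30.4 CPM (26.5 to 27.0). CD_vehicle 4 stood apart for Col1a1 at 26.6 CPM (8.84 to 10.5), Igkc at 279.7 CPM (5.81 to 11.1), Jchain at 28.4 CPM (1.01 to 1.42), Lyve1 at 35.8 CPM (12.8 to 15.3), Nudt7 at 194 CPM (293 to 318) and Pitx3 at 1.54 CPM (4.26 to 4.76). 

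The response to PFOA differed between diets by an interaction test for 7 of the named genes, given as the log2 fold change on the high-fat diet minus that on the control diet. The difference was -1.49 ± 0.19 (SE) for Cyp3a11, 0.96 ± 0.15 (SE) for Elovl2, -0.83 ± 0.13 (SE) for Ephx1, -1.95 ± 0.40 (SE) for Gadd45a, -1.91 ± 0.33 (SE) for Il1rn, -3.07 ± 0.41 (SE) for Limch1 and 1.48 ± 0.26 (SE) for Nudt7. All had an edgeR adjusted p under 0.05. The vehicle means of these genes also differed between the diets, and the part of this in the interaction was not tested.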

How the results depend on the processing

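The count of genes called on the control diet stayed within 1.5 times 3656 under all alternatives run, at 3623 with RLE factors, 3631 with upper-quartile factors, 3536 with library totals, 4033 with DESeq2, 2602 with the control-diet libraries alone and 3072 to 3971 with 1 library left out. The interaction of PFOA and diet called 31 genes, but 209 with DESeq2, 290 with no filter on low counts, 652 without CD_vehicle 1 and CD_vehicle 4, and 13 to 352 with 1 library left out; the cause was not tested. The control-diet libraries alone give no interaction. Of 198 named genes that were called, 180 kept the call in all 16 alternatives and 0 changed sign. Genes that were not called changed sign: Afp ranged from -0.59 to 0.14 with 1 library left out, Cyp2e1 from -0.02 to 0.20, Dio1 from -0.01 to 0.42 and Gdf15 from -0.44 to 0.50. Without CD_vehicle 1 and CD_vehicle 4, Afp had 0.16 and Gdf15 0.50. Of 832 list medians recomputed under the alternatives, 821 moved by no more than the spread between replicates and 11 by more. That spread was the larger SD of a group's 4 libraries and included any library left out. An odd library widens it, so the count cannot show how far a list rests on 1 library. Without CD_vehicle 4, the B cell median went from -1.71 to 0.05 and the T and NK cell median from -0.26 to 0.75. Without CD_vehicle 1, the acute phase median went from -1.12 to -0.31. Depth limits genes with few counts in 1 group, whose fitted fold changes depend on the prior count. No paired analysis was possible because the replicate numbers follow the order of the samples and pair no mice.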

Other observations

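Shorter runs of neighbouring genes called in 1 direction held genes outside the lists, along with a few members of them. On chromosome 12, 5 neighbours of the Serpina1 family of protease inhibitors, at 103728156–103904887, fell together, and 5 more, from Serpina1e to Serpina3c at 103946931–104153870, fell beside them. On chromosome 6, a run of 6 genes that fell, at 121300227–122085965, held Mug1 and Mug2, which encode murinoglobulins of plasma, and the carriers Slc6a12 and Slc6a13. On chromosome 15, a run of 6 genes that rose at 89416405–89560261 ran from Cpt1b over Chkb and Arsa to Shank3. These are close relatives or overlapping genes in part, whose reads cannot be fully told apart.

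Some small marker lists were tested besides those above. Of 5 erythroid markers 1 was called lower, and of the adipocyte, exocrine pancreas and skeletal muscle lists, with 1, 1 and 2 tested markers, 0 were called by edgeR or DESeq2 and 0 had an unadjusted p under 0.05.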
